A study of Chlamydomonas reinhardtii with 2 samples.

Results

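In the genome of Chlamydomonas reinhardtii, a green alga that lives as single cells, 249 long candidate introns were examined. A candidate intron is a stretch of the genome with few or no aligned RNA reads between a pair of sharp exon edges. The members are those of 400 to 2000 nt, out of 1413 candidate introns of 50 to 2000 nt in all. Edges came from trimmed alignments, those no longer than 32 nt. At a left edge, 6 or more different alignment lengths shared their first base, and at a right edge 6 or more shared their last. A right edge was paired with the next left edge when each was the nearest of the other, and the gap's mean depth (reads covering a base) had to stay under 20% of the depth of both flanks, the 30 nt next to either edge. The members were thus chosen by measured lengths, edges and depths, which are given as a description.

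Poly-A RNA was broken into fragments and sequenced from 1 end for 35 nt. Cells of strain 2137 had grown at 23 °C in Tris-acetate-phosphate medium with a revised trace element recipe, under light that was on throughout (50 to 90 µmol of photons per square metre each second), and had been diluted 1 to 100 into fresh medium. Both samples belong to this 1 group, so no treatment or second medium is compared. The strain tag of replicate 2 reads 2138, against its own title, which was followed. Replicate 1 held 5380216 uniquely aligned reads and replicate 2 held 5787626, or 11167842 in sum. No label says that the samples were separate cultures, so any difference between them may be technical. The p-values below come from a test that covers counting error only.

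Introns are the parts of a transcript that the spliceosome cuts out before the exons are joined, so finished messenger RNA carries few of their bases. Nuclear genes of Chlamydomonas are known to be rich in introns, and some of these, such as the first intron of the Rubisco small subunit gene RBCS2, are known to raise the expression of transgenes that carry them. A read across an exon junction cannot be aligned whole to the genome. When such a read is trimmed until it matches, the alignment stops at the last base of an exon or starts at the first base of the next. Positions are given on the joined scaffolds of assembly version 3.1, as deposited. They carry no strand, so the sides are called left and right rather than donor and acceptor, and the genes were not identified here.

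Long candidate introns made up 17.6% of all candidate introns (95% exact Clopper-Pearson interval 15.7 to 19.7, counting error only) and 44.2% of their bases, 179847 of 407226 nt. Their median length was 602 nt, with an interquartile range of 487 to 895 nt. There were 72 of 400 to 499 nt, 50 of 500 to 599 nt, 52 of 600 to 799 nt and 27 of 800 to 999 nt. A further 42 were 1000 to 1499 nt long and 6 were longer. The number per nt thus fell from each of these bins to the next. The bins grow wider with length, so they cannot show a narrower peak. The 48 members of 1000 nt or more began at 1005 nt and had a lower quartile of 1060 nt. Lengths were spread evenly over the reading frame: 83 were a multiple of 3, 80 left a remainder of 1 and 86 a remainder of 2.

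**Figure D1:**
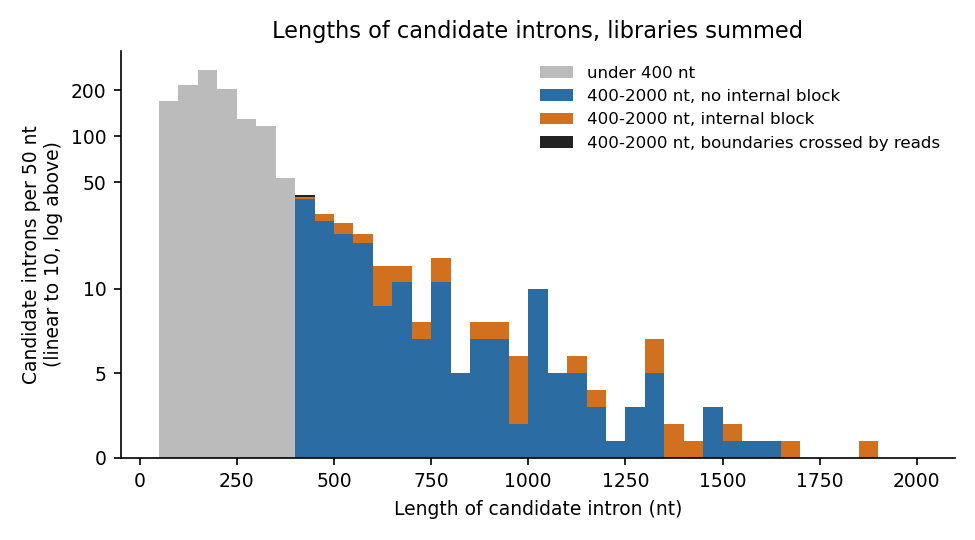
Number of candidate introns per 50 nt of length in the summed libraries (vertical axis linear to 10 and logarithmic above). Grey bars are candidate introns under 400 nt, blue bars the 207 long candidate introns with no internal block of reads, orange bars the 41 with such a block, and the black cap at 439 nt the gap whose boundaries reads cross.

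At the limits of the rule the neighbouring values were as follows. The shortest member, of 401 nt at 81663025 to 81663425, held a depth of 0.204 on average and had flanks of 51.1 and 53.9. The nearest shorter candidate intron had 395 nt, with 0.228 inside and flanks of 92.8 and 75.7. At the other limit, the longest member had 1890 nt, with 8.04 inside and flanks of 1132 and 52.9. The next longer pair had 2037 nt, with 1.28 inside and flanks of 17.5 and 16.8, a far weaker region. In depth, the last member within the limit had 19.9% of its lower flank (495 nt at 12669943 to 12670437), and the first pair past it had 20.1% (852 nt at 52393192 to 52394043). Without the depth limit 341 pairs of 400 to 2000 nt were found. The limit kept 73.0% of them, against 88.7% of the shorter pairs.

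Long candidate introns were of 2 kinds. Most held few or no reads beyond their edges, while a smaller number held a block of reads about as deep as the flanks. To describe this, the highest depth was taken in the core of each gap, leaving out the 35 nt (1 read length) next to each edge. In 41 members (16.5%, exact interval 12.1 to 21.7) it reached 50% of the lower flank or more, and in 38 of them it reached 100%. This share depends on the depth limit. Such a block was present in all 92 pairs that failed the limit, and so in 133 of the 341 pairs found without it. Among the 911 candidate introns of 125 to 399 nt such a block was present in 8 (0.878%), and among the 253 shorter ones in 0, though these gaps leave little room for a block. Of the other 208 members, 207 are called open gaps below, and 1 was crossed by more reads than were trimmed at its edges. Few members lay near 50%, the nearest values being 41.4% and 54.7%. Of the 142 long gaps called anew in replicate 1 alone 10 had a block, and of the 149 called in replicate 2 alone 19 had.

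**Figure D2:**
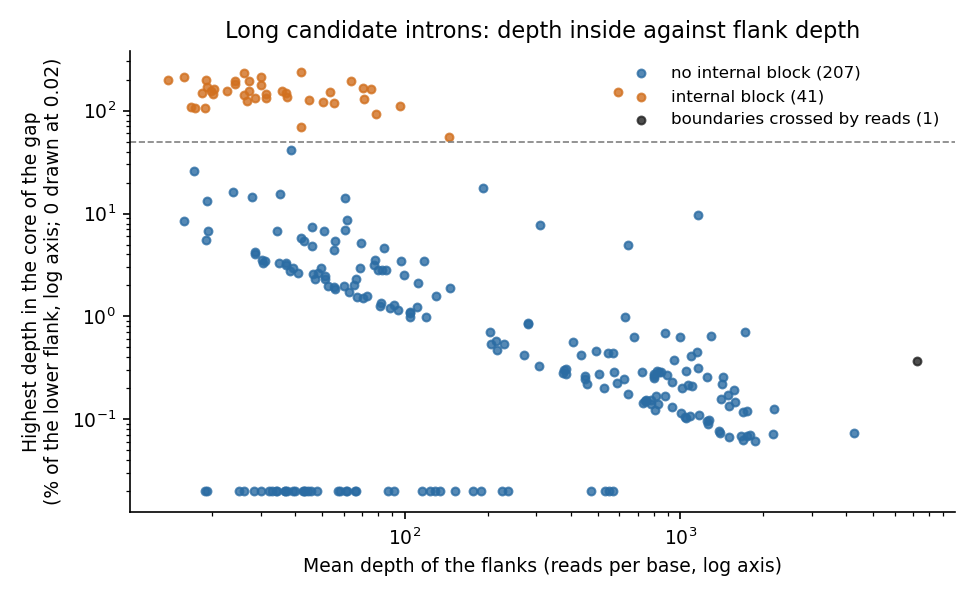
Highest depth in the core of each of the 249 long candidate introns, as a percentage of the lower flank, against the mean depth of both flanks in reads per base (both axes logarithmic; values of 0 drawn at 0.02). Orange points (41) lie above the dashed line at 50%, all but 2 of them at flank depths under 130, while blue points (207) fall with flank depth along the level of 1 or a few reads.

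The 207 open gaps had a median inside depth of 0.122% of the lower flank, with an interquartile range of 0.0591 to 0.357%. Their median length was 579 nt, and the longest had 1643 nt. In 83 of them the depth was under 0.1% of the lower flank. In all, 42 had no read lying wholly inside and 1 had no covered base (588 nt at 10060898 to 10061485, between flanks of 25.6 and 12.5). A count of 0 allows up to 3 reads in a gap, and only where reads can align uniquely. The longest unbroken stretch without reads was 1336 nt, in a gap of 1339 nt at 108085180 to 108086518. Its left flank had a depth of 18.9 in replicate 1 and 15.2 in replicate 2, and its right flank 20.8 and 19.9. It was chosen for its empty stretch, with its values in view.

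Reads inside the open gaps were few and, pooled over all these gaps, evenly placed. They held 1254 reads lying wholly inside, 601 in replicate 1 and 653 in replicate 2, over 144047 nt. That is 8.71 reads per kb, against 120 per kb in the gaps with a block and 13.8 per kb in the candidate introns of 125 to 399 nt. The last value is for that whole length class, of which 8 held a block. All members together held 5589 such reads over 179847 nt. A read also has less room to lie wholly inside a shorter gap, so these densities are not like for like. Of the 1254 reads, 19.5, 20.6, 20.2, 19.5 and 20.3% fell in 5 equal parts of the gaps from left to right. The 10 gaps with the most reads held 45.0% of them. A single gap, of 1005 nt at 28157215 to 28158219, held 311, while the median open gap held 2. The density and the 5 parts thus lean on few gaps and do not describe each one. The median of the inside depth fell with flank depth, from 0.433% in the 14 open gaps with flanks under 30 to 0.280% at 30 to 100, 0.104% at 100 to 1000 and 0.0662% in the 39 with flanks of 1000 or more. The flank is the divisor of this percentage, so a level of a few reads gives such a fall by itself. In the core alone the medians were 0.383, 0.254, 0.0295 and 0.0158% in the same order. In the candidate introns of 125 to 399 nt they were 0, 0, 0.0294 and 0.0126%.

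Open gaps and shorter candidate introns were chosen by the same rule of edges and depth. A steep fall at the edges was thus part of the choice in both. Given that, the open gaps had edge depths close to those of candidate introns of 125 to 399 nt. On the left side the median depth was 129% of the flank's mean 36 nt before the edge, 49.7% at the last exon base, 6.29% at the first base of the gap, 3.62% at the second and 0.170% at the third. On the right side the same bases had 129, 50.1, 5.96, 3.39 and 0.125%. In the candidate introns of 125 to 399 nt the left side had 129, 49.4, 6.72, 3.75 and 0.181%. Since whole reads were aligned with up to 2 mismatches and trimmed reads had to keep 21 nt, a read across a junction may run past an edge by a few bases or be lost. What part this has in the slope was not tested. Flank depths, taken in the 30 nt next to an edge, lie below the depth further into the exon.

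**Figure D3:**
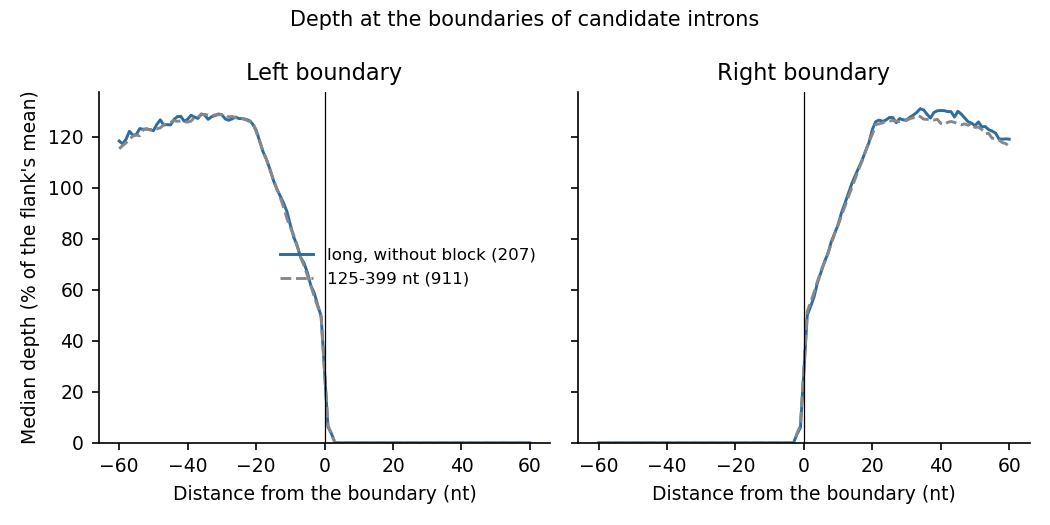
Median depth at each distance from the left and right boundary, as a percentage of the mean of the 30 nt of flank on that side, for 207 open long gaps (blue) and 911 candidate introns of 125 to 399 nt (grey dashes). Both curves drop from about 50% at the last exon base to 0 by the fifth base of the gap.

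The trimmed reads at both ends of a gap were similar in number. Over all members 35407 trimmed reads ended at the left boundaries and 37594 began at the right boundaries. Per member the median was 32 on the left and 31 on the right, and the left side had more in 117 of 249. The larger of both counts was a median of 1.49 times the smaller, against 1.53 times in the candidate introns of 125 to 399 nt. All 12 lengths from 21 to 32 nt were present at both edges in 26 members, all of them open gaps. Each library by itself showed 3 or more lengths at both edges of 220 members (88.4%), 198 of the 207 open gaps and 22 of the 41 with a block. The share was slightly higher in the shorter classes. It was 91.7% of those of 125 to 399 nt (835 of 911) and 91.7% of the short ones (232 of 253). Since both libraries entered the sum on which edges were called, these counts are not independent of the call.

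In 14 members, all open gaps, the trimmed reads differed 4-fold or more between the ends. The most unequal was the gap of 1031 nt at 69758948 to 69759978, with flanks of 1688.5 and 1679.3. There 12 reads ended at its left edge (7 in replicate 1 and 5 in replicate 2) and 472 began at its right edge (229 and 243). Another right edge 2 nt further left was the end of 299 trimmed reads. The rule takes the nearest edge, although more trimmed reads ended at the one 2 nt away. In 4 others a further edge lay within 100 nt but had fewer reads than the one used, and in 9 there was none.

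Control piles gave few long gaps. For these the far end of each alignment was put on the wrong side or at double the length, and the same pairing was run. It found 926 left and 944 right piles, against 5517 left and 5349 right edges. Fewer piles than edges were thus there to be paired. They gave 29 gaps within the depth limit, and 7 of these were of 400 to 2000 nt, 2.81% of the number of members. Such piles fall outside their own reads, and the share is not a rate of false calls.

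The deepest open gaps lay in strongly read regions and were nearly free of reads. The deepest was the gap of 509 nt at 37023548 to 37024056. Its left flank had a depth of 2118.5 in replicate 1 and 2325.3 in replicate 2, and its right flank 1972.3 and 2094.3. Inside, the depth was 2.15 and 2.51. At its edges 1575 trimmed reads ended (739 and 836) and 1386 began (660 and 726), while only 7 reads lay wholly inside. The walls were steep in both libraries, though both entered the sum on which the gap was called.

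The gap of 1596 nt at 91039584 to 91041179 was both among the 10 deepest and among the 5 longest members. Its flanks had depths of 1596.8 and 2762.4, its inside 0.306 in replicate 1 and 0.264 in replicate 2. The gap of 551 nt at 107573310 to 107573860 had flanks of 1391.8 and 2945.9 and 2.29 inside. The gap of 1008 nt at 68618347 to 68619354 had flanks of 2092.3 and 1622.7 and held 3 reads, with a depth of 0.161 and 0.151 in the 2 libraries. It was the emptiest of the 10, at 0.0192% of the lower flank.

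The remaining deep gaps repeated this picture. The gap of 948 nt at 13731314 to 13732261 had 0.660 inside between flanks of 2154.1 and 1425.7. The gap of 900 nt at 96725294 to 96726193 had 0.708 inside between 1451.1 and 2033.9. The gap of 853 nt at 72536931 to 72537783 had 0.589 inside between 1833.3 and 1643.9, though 1199 trimmed reads ended at its left edge and 505 began at its right. The gap of 659 nt at 90914769 to 90915427 had 1.27 inside between 2024.1 and 1407.9. In these 4 the inside depth was between 0.0358 and 0.0900% of the lower flank.

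**Figure D4:**
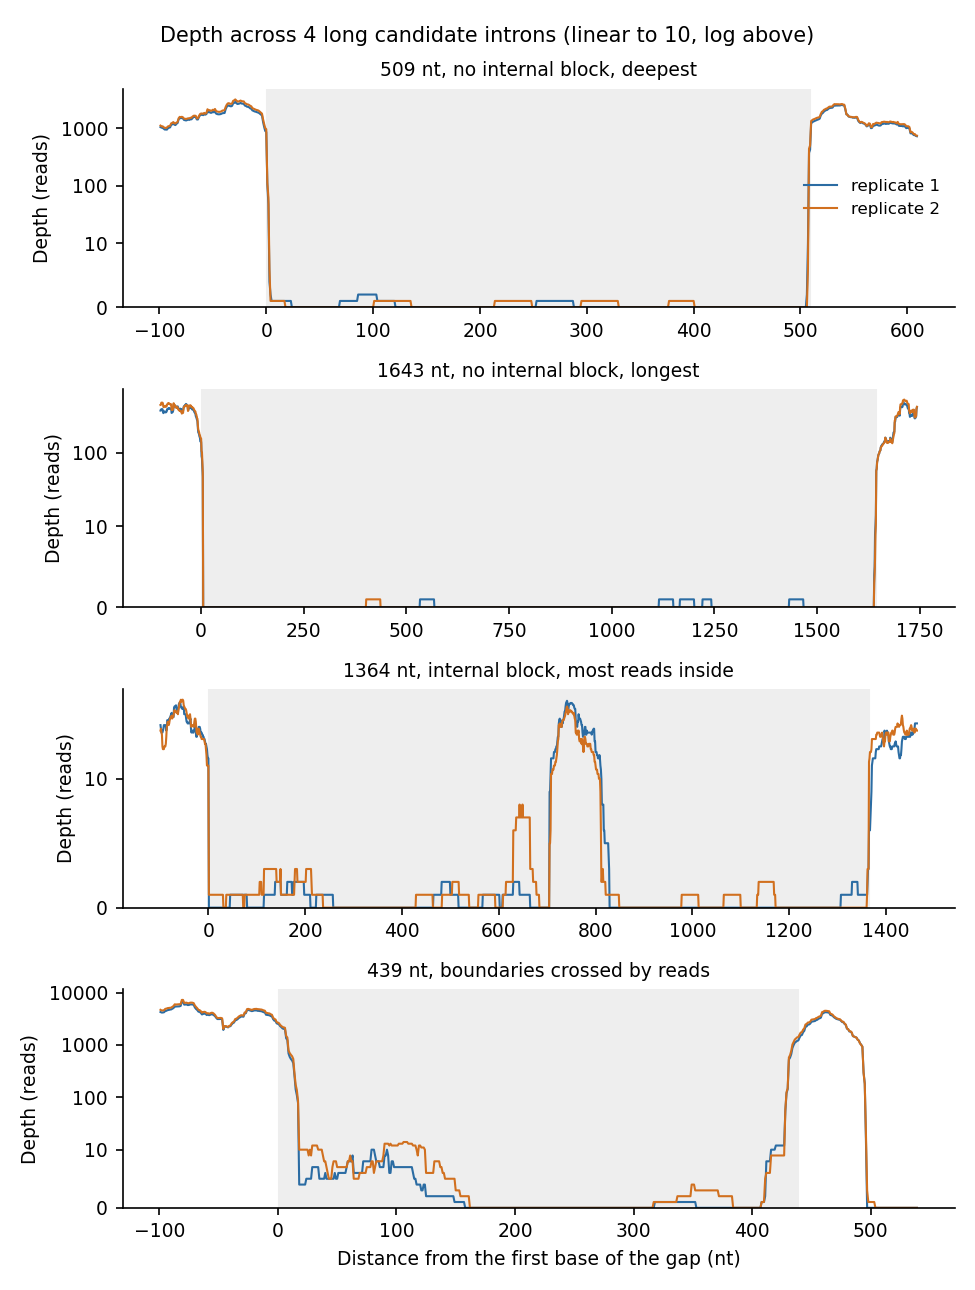
Depth at each base in replicate 1 (blue) and replicate 2 (orange) across 4 long candidate introns, against the distance from the first base of the gap (grey), with 100 nt of each side; the vertical axes are linear to 10 reads and logarithmic above. From top to bottom they are the deepest open gap (509 nt) and the longest (1643 nt), with walls at both edges and single reads between, a gap of 1364 nt with a block of reads in its middle, and the gap of 439 nt whose walls lie inside the called edges.

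The member with the highest flank depth of all was not bounded like the others. It is the gap of 439 nt at 16023494 to 16023932, with flanks of 8209 and 6268 and 138 inside (65.0 in replicate 1 and 72.9 in replicate 2). Only 6 trimmed reads ended at its left edge and 11 began at its right edge. By contrast, 2619 reads crossed the left edge and 1196 the right edge with at least 8 nt on each side, 1804 in replicate 1 and 2011 in replicate 2. The steep falls in depth lie within the called gap, some bases in from each edge. Its ends are thus set by small piles in a very deep region, and it goes against the description of a candidate intron bounded by sharp edges.

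Crossing reads of this kind were otherwise rare. They were present at either edge in 45 members (18.1%), against 17.7% of the candidate introns of 125 to 399 nt, and exceeded the trimmed reads in 2. In the open gaps the most were 35, in the gap of 1005 nt at 28157215 to 28158219. This gap, singled out after its values were seen, was also the only open one covered by reads over its whole length. It had a depth of 5.44 in replicate 1 and 6.41 in replicate 2, or 2.18% of the lower flank, between flanks of 744 and 544. It held 311 of the 1254 reads inside open gaps, 142 and 169 in the 2 libraries, and 172 trimmed reads ended and 263 began at its edges. In the sum the highest depth in its core was 27, against a mean of 11.9 inside. Sharp edges and a low cover of reads were thus present in the same gap in both libraries.

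In 41 members 1 or more blocks of reads divided the gap into shorter stretches. They held 54 blocks, 1 block in 30 members, 2 in 9 and 3 in 2. The blocks extended over bases of at least 10% of the lower flank, with a median width of 90.5 nt and an interquartile range of 74.8 to 110 nt. Their mean depth was a median of 84.3% of the lower flank. The gaps with a block held 4256 of the 5589 reads lying wholly inside members (76.2%), 2032 in replicate 1 and 2224 in replicate 2.

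Most blocks ended at small piles of trimmed reads that were too weak for the rule. A base where 3 to 5 lengths began lay within 5 nt of the left end of 39 of the 54 blocks, and a base where 3 to 5 lengths ended lay within 5 nt of the right end of 38. In 28 blocks both were present and in 5 neither. Weak edges lay anywhere inside 40 of the 41 members with a block and inside 2 of the 207 open gaps. A weak edge takes at least 3 reads, and open gaps held a median of 2 reads wholly inside against 86 in the members with a block, so these counts are a description only. Beside 17 single blocks with a weak edge at both ends lay 34 stretches, not all of them free of reads, with a median of 276.5 nt and a range of 116 to 922 nt, 28 of them under 400 nt. In 25 of the 41 members every stretch beside the blocks was under 400 nt. Bounded by edges of 6 lengths, their blocks would leave no gap of 400 nt or more.

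Members with a block lay in weakly read regions. The median of their flank depth was 29.95, against 145 for the open gaps. Flanks under 130 were found in 39 of 41, against 102 of the 207 open gaps (49.3%) and 516 of the 911 candidate introns of 125 to 399 nt (56.6%). A block is called as a share of the lower flank, and depth sets which edges reach 6 lengths. The part of either in this pattern was not tested. A median of 13 trimmed reads ended at their left edge and 13 began at their right, against 45 and 52 in open gaps. An edge takes at least 6 trimmed reads, 1 of each length. In 26 of the 41 no other candidate intron lay within 2000 nt, against 23 of the 207 open gaps. The 92 pairs of 400 to 2000 nt that failed the depth limit, all of them with a block, had a median flank depth of 32.8.

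The 5 members whose inside depth was the highest share of their lower flank, between 18.9 and 19.9%, all held a block, though that share was part of the choice of members. The gap of 621 nt at 45172113 to 45172733 had 4.76 inside in replicate 1 and 3.54 in replicate 2, with flanks of 41.7 and 48.2, and a block of 249 nt. The gap of 623 nt at 76445564 to 76446186 had 5.42 and 5.06 inside, with flanks of 53.9 and 56.7, and a block of 139 nt with a depth of 46.8 that began 285 nt into the gap and ended 199 nt before its right edge. The gap of 1349 nt at 53308457 to 53309805 had 2.35 and 2.45 inside and 3 blocks of 95, 128 and 91 nt. The gap of 664 nt at 4395426 to 4396089 had 1.48 and 2.04 inside and a block of 79 nt, 430 nt from its left edge and 155 nt from its right. The gap of 495 nt at 12669943 to 12670437 had 1.22 and 1.84 inside and a block of 99 nt. In each library 17 or more reads lay wholly inside each of these gaps.

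Of the 5 longest members, 3 held blocks. The longest, of 1890 nt at 77141688 to 77143577, had flanks of 1132 and 52.9, and 301 reads crossed its left edge while 30 were trimmed there. It held a block of 264 nt and a block of 81 nt. The gap of 1685 nt at 14167302 to 14168986 had flanks of 24.7 and 27.4 and blocks of 160 and 145 nt with weak edges at all 4 ends. The gap of 1524 nt at 25887206 to 25888729 had flanks of 20.1 and 20.2 and blocks of 67 and 59 nt. The longest open gap, of 1643 nt at 96682128 to 96683770, held 6 reads (5 in replicate 1 and 1 in replicate 2) between flanks of 636 and 238. The open gap of 1596 nt is described above.

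The 3 members of lowest flank depth were just deep enough for their edges to be called. The gap of 743 nt at 97816630 to 97817372 had flanks of 11.1 and 16.5, with 6 and 11 trimmed reads at its edges and a block of 105 nt. The gap of 1386 nt at 40215606 to 40216991 had flanks of 16.7 and 14.8 and 2 blocks, of 67 and 102 nt. The gap of 419 nt at 45324207 to 45324625 was open, with flanks of 11.9 and 19.6 and 3 reads inside, all in replicate 2.

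Open gaps of 1000 nt or more had a higher median flank depth than shorter ones, although 6 of 38 had flanks under 130 and the deepest open gap had 509 nt. Of the 38 open gaps of 1000 nt or more, the median flank depth was 941, against 225 for the 59 of 600 to 999 nt and 86.2 for the 110 under 600 nt. Across the 207 open gaps length and flank depth had a Spearman rho of 0.395, given as a description, since all values share the same libraries. Flank depths of 500 or more were found in 36.7% of open gaps and 21.6% of candidate introns of 125 to 399 nt, and depths from 130 to 500 in 14.01% and 21.7%. Depth also sets which edges reach 6 lengths, and its part in this pattern was not tested.

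The share of long gaps among all candidate introns was highest at both ends of the depth range. It was 29.2% (35 of 120; exact interval 21.2 to 38.2) at flank depths under 30, 16.2% (95 of 587) at 30 to 100, 14.2% (79 of 557) at 100 to 1000 and 26.8% (40 of 149; 19.9 to 34.7) at 1000 or more. The long gaps at the lower end were mostly those with a block, 21 of 35, while of the 40 at the upper end 0 had a block and 39 were open. With only open gaps counted, the shares were 11.7, 13.1, 13.8 and 26.2% in the same order. The open gaps of the deepest class had a median length of 944 nt, against 512, 522 and 602 nt in the other classes. No test of these differences is given, because regions of the same libraries are not replicates.

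The flanks of a long gap mostly had similar depths. The higher flank was a median of 1.29 times the lower, against 1.25 times in the candidate introns of 125 to 399 nt, and the left flank was higher in 125 of 249. Ratios of 2 or more were found in 12 members (4.82%), against 58 of 911 (6.37%) and 27 of the 253 short ones (10.7%). Unequal flanks were thus no more common around long gaps in these counts.

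A few gaps joined flanks of very different depth, and these were chosen after their values were seen. The gap of 464 nt at 38829812 to 38830275 had a left flank of 1103.7 in replicate 1 and 1166 in replicate 2, but a right flank of 20.8 and 20.4, a ratio of 55.1 in sum. There 373 trimmed reads ended on the left and 38 began on the right. The gap of 602 nt at 52560241 to 52560842 had 25.8 on the left and 592 on the right. The gap of 494 nt at 16792949 to 16793442 had 107 and 958. Such pairs need not bound the same intron, since pairing uses position alone.

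Open long gaps lay in runs with other candidate introns about as often as those of middle length. A further candidate intron lay within 2000 nt on both sides of 99 of the 207 open gaps (47.8%), on 1 side of 85 and on neither side of 23. For the 911 of 125 to 399 nt the numbers were 393 (43.1%), 410 and 108. Segments were measured only where a neighbour lay within 2000 nt, on the left of 147 members and on the right of 155. They had a median of 130 nt on the left and 142 nt on the right. For those of 125 to 399 nt the medians were 139 nt (591 gaps) and 137 nt (605 gaps). Of all 249 members, 49 (19.7%) had no such neighbour on either side, against 11.9% of those of 125 to 399 nt. Where such a neighbour was present, the segments beside long gaps were thus of similar width.

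Of 906 neighbouring pairs within 2000 nt, 43 were of 2 long gaps and 216 more had a single long member. Members occurred in 191 of the 507 runs of candidate introns, and 46 runs had 2 or more of them. The run at 77138523 to 77144683, singled out after its values were seen, held 4 long gaps among 9 candidate introns. Its open gaps of 859, 840 and 433 nt followed each other with 142 and 148 nt between them. They had flanks of 491 and 566.7, 348.6 and 800.8, and 657.6 and 836.6, with 0.212, 0.161 and 0.524 inside. The fourth is the longest member, past which the flank depth fell to 52.9, and the 3 candidate introns after it, of 146 to 262 nt, had flanks of 38.4 to 70.2.

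No member had flank reads that differed between the libraries past the threshold. Of 1413 candidate introns tested, 0 passed an adjusted p of 0.05 (0% called; two-sided exact binomial test of the reads over both flanks at the ratio of library totals, Benjamini-Hochberg adjusted), and so 0 of the 249 members did. An unadjusted p under 0.05 was found for 4 members (1.61%) and for 78 of all candidate introns (5.52%). The lowest adjusted p of a member was 0.481 in this exact test, reached by the gaps of 1524 nt at 25887206 and of 1448 nt at 80366361. The first had 16 flank reads in replicate 1 and 38 in replicate 2, the second 18 and 42. Scaled by library totals, the ratio of replicate 2 to replicate 1 had a median of 1.01 over the members, with 10th and 90th percentiles of 0.858 and 1.18. The test compares 2 libraries and no condition.

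**Figure D5:**
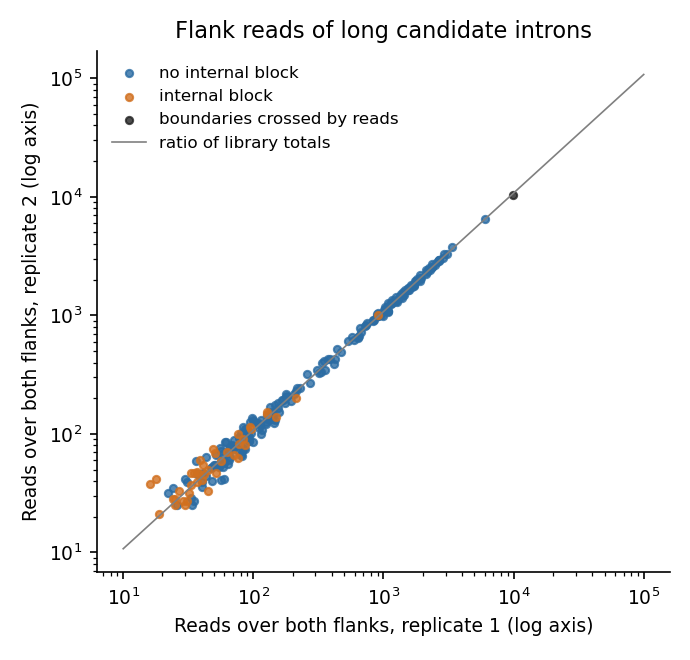
Reads over both flanks of each of the 249 long candidate introns in replicate 1 and replicate 2 (both axes logarithmic), with the ratio of the library totals as a grey line. The points follow the line over the whole range and scatter most under 100 reads, where most gaps with a block (orange) lie.

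Each library alone gave fewer long gaps, with mostly the same ends. Replicate 1 gave 142 and replicate 2 gave 149, and 132 and 136 of these had the same ends as members called on the sum. Each library is part of that sum, so these 2 counts are not independent of the call. The 2 single-library sets shared 115, which is 81.0% of those of replicate 1 and 77.2% of those of replicate 2. The median length was 659 nt in each, longer than the 602 nt of the sum.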

How the data were processed

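Poly-A RNA of 2 libraries of 1 group was analysed. Per the authors' deposited readme, SOAP placed reads on the unmasked assembly, version 3.1 with 1266 scaffolds, allowing 2 mismatches but no indel. The aligner's version is not given in the sources used here. Unplaced reads lost bases from either end until a perfect match was reached, of 21 nt at the least. The deposited tables hold raw counts of uniquely aligned reads for each start and alignment length, so repeats and near-identical copies are missing. The deposited tables' other columns hold positions and lengths in nt. Whether positions count from 0 or 1 is not given. The annotation at hand is of version 5.5, so no gene, strand or sequence is given.

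Both libraries were summed. Depth, edges, pairs and intervals were computed with Python 3.11.15, numpy 2.4.6, pandas 2.3.3 and scipy 1.17.1, and figures with matplotlib 3.10.9. The exact binomial test used candidate introns with at least 10 flank reads. The pairing and the test were also run on simulated data. The simulated introns held no reads, and the simulated counts followed the binomial model that the test assumes. Gaps with a block or with crossing reads were thus not covered. Reads carried no molecular identifiers and PCR copies are not independent, so intervals and floors cover counting error only. The members and lists were chosen with earlier results of these data known. Gaps named singly are the 10 of highest flank depth, the 5 longest, the 5 of highest inside depth, the 3 of lowest flank depth and those next to each limit; others are said to be chosen after their values were seen. Alternatives changed edges, depth limit, flanks, counting and libraries.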

Additional observations from a re-analysis of the deposited data

How the results depend on the processing

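The division into open gaps and gaps with a block, and its alternatives, were chosen after seeing the data; the other settings were listed with earlier results of these data known. A count was taken as moved when it changed by more than 1.5 times, a median when it shifted by more than the spread between the libraries, and a share when it left its exact interval. By that measure those listed moved 24 values and did not move 16, and those added moved 7 and did not move 7. The 249 long candidate introns became 157 with 8 lengths at an edge, 336 with 5 lengths, 341 with no depth limit and 142 to 149 with 1 library left out. Their median length of 602 nt moved to 619 (8 lengths), 583.5 (5 lengths), 595 (alignments up to 30 nt), 652 (no depth limit), 572 (limit of 5%), 602.5 (flanks of 50 nt) and 607 nt (each position and length counted once), and to 659 nt with either library left out. The libraries' equal medians make any shift count as moved. The median inside depth of 0.156% moved to 0.120, 0.229, 0.132, 0.493, 0.122, 0.150 and 0.684% in the same order, and to 0.107 to 0.113% in single libraries. The share of long gaps, 17.6%, moved to 20.6% without a depth limit and 15.5% with a limit of 5%. Gaps with a block numbered 24 with 8 lengths, 61 with 5 lengths, 133 with no depth limit and 10 to 19 in single libraries, in place of 41, and 43 and 38 with blocks taken from 20% or 100% of the lower flank. Open gaps numbered 132 with 8 lengths, 273 with 5 lengths and 129 to 131 in single libraries, in place of 207, and 207 with no depth limit. With flanks of 50 nt 1 candidate intron differed between the libraries, of 88 nt and so no member, with 593 and 813 reads (exact binomial test, adjusted p = 0.0101). The causes of the shifts were not tested. Depth limits the finding of edges in weakly read regions. A paired fit could not be made with 1 group.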
